A study of Mus musculus with 9 samples.

Results

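The comparison set 3 libraries of mouse bone marrow cells transformed by KMT2A-MLLT1 (Runx2wt) against 3 libraries of BM progenitor cells, 6 of the 9 libraries of the series, and covered every gene that could be tested in them. It was chosen by the sample labels, and the question the design names is how marrow progenitors differ from cells transformed in vitro by the fusion. All 6 libraries came from lineage-depleted (Lin-) marrow that was Runx2fl/fl CreER T2tg, which means that both alleles of Runx2 were floxed and a tamoxifen-inducible Cre was present in the controls as well. Per the labels, such cells received a retrovirus for KMT2A-MLLT1-eGFP and spent 24 hours in RPMI medium with 10% FBS, IL-3 at 10 ng/ml, IL-6 at 10 ng/ml and stem cell factor at 50 ng/ml. They then grew as colonies in methylcellulose and were harvested and replated at intervals of 7 days, over 3 rounds. BM progenitor RNA, labelled untreated, was taken before the first replating, and the labels do not settle whether those cells carried the fusion. Runx2wt cells were grown in suspension after the second replating and were given ethanol, the vehicle of the tamoxifen arm, so Runx2 was not deleted in them. Time in culture, form of culture and vehicle differ together between the groups, the fusion may differ with them, and these cannot be told apart. The labels call the samples independent biological replicates; they do not say how many clones or animals stand behind each, and the extraction protocol names T-ALL cells, a source found nowhere else in the labels.

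KMT2A, also called MLL, is a histone methyltransferase that keeps developmental genes active, and MLLT1, also called ENL, is a reader of acetylated histones that works with the elongation machinery of RNA polymerase II. The fusion of both is found in acute leukaemias. It is known for holding the posterior Hoxa genes and Meis1 at a high level in myeloid progenitors, which then keep dividing in colony culture instead of maturing into granulocytes, macrophages or mast cells. Lin- marrow placed in IL-3, IL-6 and stem cell factor without such a fusion gives rise to these mature myeloid cells, eosinophils and basophils included.

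Expression was measured by QuantSeq, which counts 1 tag near the 3' end of each transcript, so that levels of different genes can be compared without correction for length. Levels are given in CPM, the count of a gene scaled to a common library total with TMM factors. Library totals ran from 3555621 to 5348177 counts. A log2 fold change is Runx2wt minus BM progenitor, and a gene passed where the adjusted p of edgeR's quasi-likelihood test over the 6 libraries was under 0.05. Of 21159 genes, 2011 had no count in these libraries and 10864 had enough counts to be tested. Libraries of a group resembled each other (Pearson r of log2 CPM across genes of 0.977 to 0.981 within BM progenitor, 0.953 to 0.965 within Runx2wt and 0.845 to 0.877 between the groups; genes are not independent replicates). On a principal component analysis the first component held 73.3% of the variance and separated the groups, and the second held 10.96% and set Runx2wt replicate 3, at -45, apart from Runx2wt replicates 1 and 2, at 24.0 and 20.3.

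In all, 3679 of 10864 tested genes passed, 33.9%, of which 1936 were higher in Runx2wt (17.8% of tested genes) and 1743 were lower (16.0%). The median log2 fold change was 1.06 among genes that rose and -1.0 among genes that fell, against 0.002 over all tested genes. Large falls outnumbered large rises, though beyond 1 log2 unit there were 1036 rises and 861 falls. Beyond 4 log2 units there were 165 falls and 90 rises, and beyond 6 there were 64 and 34. The genes that rose took 18.1% to 18.8% of the counts of a BM progenitor library and 30.2% to 34.0% of a Runx2wt library, and the genes that fell took 21.3% to 21.8% and 9.90% to 12.1%. Groups did not overlap in CPM for 5376 genes (49.5%), of which 1759 did not pass. Without Runx2wt replicate 3 there were 4036 passing genes, and without BM progenitor replicates 2 or 3 there were 2363 or 2367. With all 9 libraries of the series sharing 1 estimate of the spread 1513 genes passed, and counts for the lists below were lower in most cases; they are given as the 9-library fit.

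**Figure D1:**
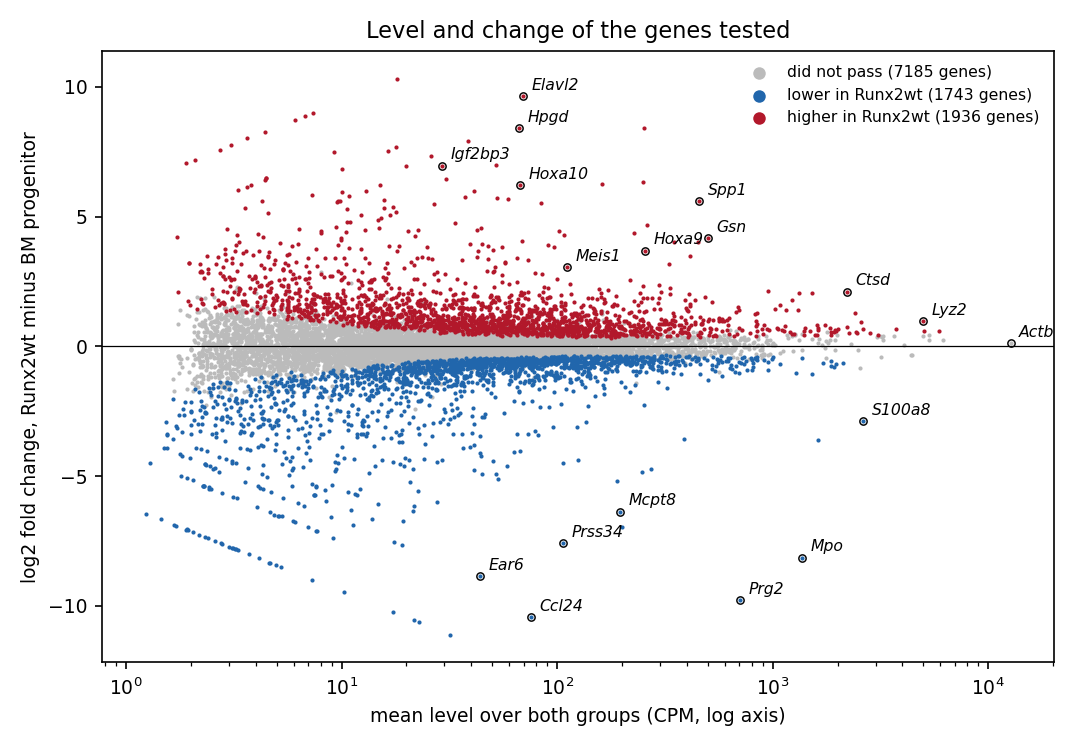
Each point is 1 of 10864 tested genes, with its mean CPM over both groups on a log axis and its log2 fold change (Runx2wt minus BM progenitor) on the y axis. Genes that rose (1936) are red, genes that fell (1743) are blue and the others grey; Elavl2 and Hpgd lie near the top, Prg2 and Mpo near the bottom, and Actb, the most abundant gene drawn, did not pass at a log2 fold change of 0.11.

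Groups of named genes carry the account below, in the order of what they do: fusion targets and other developmental regulators, genes of mature and immature blood cells, surface and secreted molecules, cell division, protein synthesis, and metabolism with the lysosome. The number of members of a list that rose or fell is to be read beside the shares over all tested genes, 17.8% higher and 16.0% lower. For division genes, lysosomal genes and replication genes stretches of promoter are shown first, because these genes are known for shared promoter elements. Sequences are from RefSeq (build GRCm38.p6), 150 bases ending just before the annotated start of transcription, 5' to 3' on the gene's own strand, with the letters searched for in capitals. For each gene list 2 genes whose 150 bases held the letters are shown. They were picked by size of change among part of the list, so carriers with larger changes may exist.

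Cdc20, which activates the anaphase-promoting complex, and Ect2, a regulator of cytokinesis, both fell and hold TTTGAA, the core of the cell cycle homology region, at chr4:118437344-118437493 (minus strand) and chr3:27153879-27154028 (minus strand).
Cdc20: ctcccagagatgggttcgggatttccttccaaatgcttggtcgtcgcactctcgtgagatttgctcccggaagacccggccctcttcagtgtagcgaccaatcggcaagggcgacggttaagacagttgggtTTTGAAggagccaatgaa
Ect2: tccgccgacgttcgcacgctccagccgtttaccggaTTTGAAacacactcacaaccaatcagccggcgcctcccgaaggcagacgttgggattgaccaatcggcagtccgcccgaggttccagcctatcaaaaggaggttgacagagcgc

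Ctsd, which encodes the aspartic protease cathepsin D, and Sgsh, a sulfatase of heparan breakdown, both rose and hold TCACGTG or its reverse complement, the E-box type letters of coordinated lysosomal genes, at chr7:142387828-142387977 (minus strand) and chr11:119355511-119355660 (minus strand). In Ctsd the letters on both strands overlap.
Ctsd: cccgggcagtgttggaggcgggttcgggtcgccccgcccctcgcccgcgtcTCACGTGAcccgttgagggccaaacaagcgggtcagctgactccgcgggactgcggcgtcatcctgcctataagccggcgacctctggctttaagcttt
Sgsh: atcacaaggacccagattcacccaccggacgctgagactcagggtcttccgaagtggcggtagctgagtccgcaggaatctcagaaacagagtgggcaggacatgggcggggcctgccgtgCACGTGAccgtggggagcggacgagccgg

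Orc1, a subunit of the origin recognition complex, and Mcm6, a subunit of the replicative helicase, both fell and hold TTTCGCGC or its reverse complement, letters of an E2F site, at chr4:108579304-108579453 (plus strand) and chr1:128359706-128359855 (minus strand).
Orc1: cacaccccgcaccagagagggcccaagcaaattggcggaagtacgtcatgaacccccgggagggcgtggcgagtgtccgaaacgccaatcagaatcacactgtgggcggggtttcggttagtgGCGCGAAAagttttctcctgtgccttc
Mcm6: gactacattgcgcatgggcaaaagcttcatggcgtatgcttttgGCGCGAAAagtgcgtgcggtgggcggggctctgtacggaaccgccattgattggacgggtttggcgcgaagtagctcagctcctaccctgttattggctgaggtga

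Over the RefSeq windows of 300 bases (250 before the start and 50 after), TTTGAA on either strand was present for 39 of 58 mitosis genes with a window, 67.2%, against 14.4% of the 8268 tested genes with a window and 17.9% of all 32851 windows. TCACGTG on either strand was present for 16 of 42 lysosomal genes, 38.1%, against 7.38% of tested genes and 3.77% of all windows. TTTCGCGC on either strand was present for 9 of 61 replication genes, 14.8%, against 0.810% and 0.323%. Among all passing genes with a window the shares were as follows. TTTGAA was present for 17.3% of genes that fell and 13.5% of genes that rose, TCACGTG for 6.60% and 9.05%, and TTTCGCGC for 1.67% and 0.343%. These shares describe letters in promoter windows and were not tested.

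The posterior Hoxa genes and a set of developmental transcription factors rose in all 3 transformed libraries. All 5 tested genes of the Hoxa cluster rose, with a median log2 fold change of 4.07; 11 of the 12 listed were in the table, and the others had too few counts to test. Hoxa9, a homeobox factor of haematopoietic progenitors (chromosome 6, 52223100 to 52231089, minus strand, GRCm38), was at 32.5, 29.6 and 48.3 CPM in BM progenitor and at 468, 522 and 438 CPM in Runx2wt. Its log2 fold change was 3.69 (SE 0.20, edgeR adjusted p = 3.1e-06), and the groups lay far apart with little spread in either. Hoxa10 went from 3.30, 0.814 and 0.858 CPM to 116, 139 and 145 CPM, and Hoxa11 from 0, 0 and 0.214 CPM to 17.9, 20.7 and 16.5 CPM. Hoxa5 rose by 4.07 log2 units. Outside this cluster, Hoxb13, a posterior homeobox gene that blood cells do not normally use, had no count in BM progenitor and was at 17.5, 15.4 and 11.2 CPM in Runx2wt. Against the floor that 0 counts allow (3 counts over the group), it was at least 64.9-fold higher.

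Among 23 tested fusion targets outside the Hox clusters, 12 rose and 6 fell, with a median log2 fold change of 0.70; in the 9-library fit 9 rose and 1 fell. Meis1, the homeobox cofactor of Hoxa9, went from 26.8, 23.3 and 21.2 CPM to 185, 262 and 149 CPM (log2 fold change 3.06, SE 0.22, edgeR adjusted p = 2.06e-05). Six4 and Eya1, which act in the embryo in muscle, kidney and ear, had larger log2 fold changes than Meis1. Six4 rose by 6.99 and Eya1, a phosphatase, by 4.44 log2 units, and in both genes Runx2wt replicate 3 was the lowest of its group, at 47.4 and 87.2 CPM against 113 and 151 CPM and 209 and 287 CPM. Among the targets that fell, Angpt1, the angiopoietin that binds Tie2, went from 43.7, 44.5 and 33.2 CPM to 1.14, 1.40 and 0.561 CPM. Map7, a microtubule-binding protein, fell by 3.35 log2 units.

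Several of the largest rises were in genes with few or no counts in BM progenitor. Elavl2 (chromosome 4, 91250763 to 91400785, minus strand), a neuronal RNA-binding protein, went from 0.184, 0.271 and 0 CPM to 119, 193 and 106 CPM. The fitted log2 fold change was 9.65 (SE 0.47, edgeR adjusted p = 1.59e-06), the largest among genes with a count in both groups. Igf2bp3 and Lin28a, RNA-binding proteins of the embryo and of fetal blood formation, rose by 6.97 and 2.08 log2 units, with Igf2bp3 at 70.5, 41.7 and 62.2 CPM in Runx2wt against 0.184, 0.814 and 0.429 CPM. Tenm4, a transmembrane teneurin, rose by 7.53, Lhfp by 7.68 and Shisa2, a membrane protein of Wnt and FGF receptor maturation, had no count in BM progenitor and 10.1, 19.3 and 7.01 CPM in Runx2wt. C2cd4a, at 57.4, 44.2 and 7.29 CPM against no count in BM progenitor, was at least 169-fold higher. Cyp4a12a and Cyp4a12b, fatty acid hydroxylases of the kidney with near-identical sequences between which reads may be split, rose by 6.96 and 8.88 log2 units. The other genes at 0 in BM progenitor included Neil2, a DNA glycosylase, and the homeobox gene Nkx6-2, at 6.08, 6.16 and 14.3 CPM and 11.4, 5.88 and 4.48 CPM in Runx2wt. In all, 10 tested genes had no count in BM progenitor and 32 had none in Runx2wt. Such genes could enter the test only through their counts in the other group, so that every one of them passed is no separate finding.

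Runx2 itself, the RUNX factor of bone formation, rose. Runx2 (chromosome 17, 44495987 to 44814797, minus strand) was at 53.6, 46.9 and 59.4 CPM in BM progenitor and at 161, 181 and 132 CPM in Runx2wt, which gave a log2 fold change of 1.56 (with SE 0.16, edgeR adjusted p = 0.00015). It missed the threshold in the 9-library fit (edgeR adjusted p = 0.0738). Runx1, the RUNX factor of definitive blood formation, fell by 1.06 and Runx3 by 0.82 log2 units (edgeR adjusted p = 0.0473), and Cbfb, the common partner of all 3, was at 251, 276 and 310 CPM against 260, 258 and 263 CPM and did not pass. Runx3 lost its call in the 9-library fit, without any 1 of the BM progenitor libraries and without Runx2wt replicate 1 or 2. Cbfa2t3, a corepressor that binds the erythroid and megakaryocyte complex of Gata1 and Tal1, fell by 2.72. Spp1, which encodes osteopontin and is a skeletal target of Runx2, was at 10.3, 18.2 and 27.0 CPM in BM progenitor and at 841, 263 and 1582 CPM in Runx2wt (log2 fold change 5.60, SE 0.64). The Runx2wt libraries spread over a wide range for Spp1, and all lay above BM progenitor. Vegfa, another listed skeletal target and a growth factor of blood vessels, rose by 1.98. Of 13 listed skeletal targets 9 were in the table and only 3 could be tested, of which 2 rose and 1 did not pass.

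The genes of the KMT2A complex and of the elongation machinery moved little as a list. Of 27 tested, 3 rose and 6 fell, 33.3% against 33.9% over all genes; without BM progenitor replicate 2, 3 fell, and in the 9-library fit 3 rose and 1 fell. Kmt2a rose by 1.31 log2 units, from 131, 163 and 141 CPM to 386, 431 and 262 CPM, and Mllt1 fell by 0.99. Mllt1 lost its call without any 1 of the BM progenitor libraries, without Runx2wt replicate 2 or 3 and in the 9-library fit. Whether 3' tags of the retroviral fusion transcript can be counted in either gene is not stated in the labels. Ash2l, a core subunit of the methyltransferase complex, rose by 1.09, and Aff1 of the super elongation complex by 0.77. Aff3, its lymphoid relative, went from 13.8, 15.5 and 16.5 CPM to 0, 0 and 0.280 CPM. Among 34 polycomb and DNA methylation genes, 6 rose (17.65% against 17.8% over all genes) and 9 fell (26.47% against 16.0%). In the 9-library fit 5 rose and 6 fell. The de novo DNA methyltransferases Dnmt3b and Dnmt3a fell by 2.52 and 1.48, and Mtf2, an accessory subunit of PRC2, fell by 1.13. Jarid2, another accessory subunit, and Kdm6b, the demethylase that opposes PRC2, rose by 0.88 and 1.05.

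**Figure D2:**
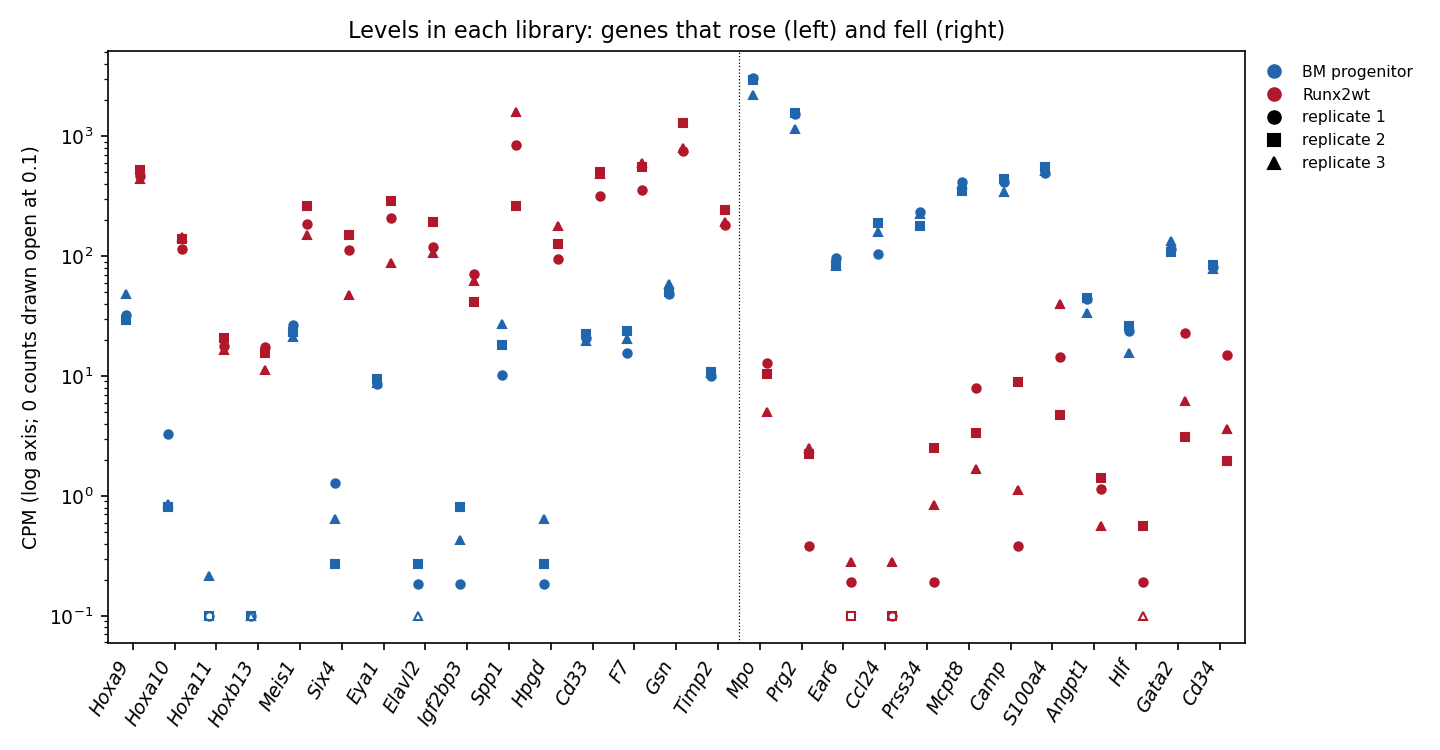
CPM of 27 named genes on a log axis, with 1 symbol per library (blue BM progenitor, red Runx2wt; circles, squares and triangles are replicates 1, 2 and 3, and a library with 0 counts is drawn open at 0.1). The 15 genes on the left rose and the 12 on the right fell. The groups do not overlap in any of them, which for some was part of the rule by which they were named. Over all tested genes the groups do not overlap in 49.5%.

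Summed markers of several mature cell types were lower in Runx2wt than in BM progenitor, and those of eosinophils were nearly absent there. In bulk RNA, fewer cells of a type and less RNA per cell cannot be told apart. Of 4 markers of eosinophils fixed for the check of cell types, 3 were in the table, and their summed level was 1276 to 1696 CPM in BM progenitor and 0.570 to 2.80 CPM in Runx2wt. Mast cell and basophil markers summed to 499 to 606 CPM and 20.3 to 128 CPM, late neutrophil markers to 7439 to 10230 CPM and 161 to 2279 CPM, and dendritic cell markers to 155 to 223 CPM and 12.4 to 48.5 CPM. Most of the mast cell and basophil sum came from Mcpt8 in BM progenitor and from Cpa3 in Runx2wt. Markers of monocytes and macrophages overlapped between the groups (442 to 566 CPM and 468 to 788 CPM), as did the 5 progenitor markers (626 to 692 CPM and 376 to 754 CPM), in which Myb carried most of the sum. T cell, B cell and erythroid markers stayed under 14 CPM in every library, Cd3g was at 0 in all 6, and the part of cell makeup in the changes below was not tested.

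The eosinophil list gave the deepest falls. Of 11 tested members 10 fell, with a median log2 fold change of -8.35, and Siglecf, at a log2 fold change of -1.04 (edgeR adjusted p = 0.293), did not pass, though it did without Runx2wt replicate 1. Prg2, the major basic protein of eosinophil granules (chromosome 2, 84980461 to 84983632, plus strand), was at 1518, 1565 and 1153 CPM in BM progenitor and at 0.380, 2.24 and 2.52 CPM in Runx2wt. Its log2 fold change was -9.79 (SE 0.38, edgeR adjusted p = 5.52e-07). Epx, eosinophil peroxidase, and the ribonucleases Ear1 and Ear2 had no count in any Runx2wt library and were at least 202-fold, 279-fold and 151-fold lower. Ear genes are near-identical copies, so counts of single members are uncertain. Ccl24, a chemokine that draws eosinophils, was at 104, 189 and 160 CPM in BM progenitor and at 0, 0 and 0.280 CPM in Runx2wt.

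Among tested mast cell and basophil genes falls outnumbered rises, but some mast cell genes did not fall. Of 21 tested members 12 fell and 2 rose, with a median of -2.54. Mcpt8 and Prss34, proteases of basophils, went from 415, 347 and 400 CPM to 7.98, 3.36 and 1.68 CPM and from 234, 177 and 222 CPM to 0.190, 2.52 and 0.841 CPM. Cma1, the mast cell chymase, rose by 7.32 log2 units (SE 1.35, with an edgeR adjusted p of 0.00294) but was uneven, at 3.42, 39.7 and 111 CPM in Runx2wt. Cpa3, the mast cell carboxypeptidase, did not pass, at 94.7, 64.3 and 70.3 CPM against 10.6, 59.9 and 114 CPM. Tpsb2, a mast cell tryptase with too few counts to be tested, was at 0 in BM progenitor and at 1.90, 25.2 and 63.1 CPM in Runx2wt. In each of Cma1 and Cpa3 replicate 1 was the lowest Runx2wt library and replicate 3 the highest, and without Runx2wt replicate 1 the list had 5 members higher and 12 lower. In the 9-library fit 1 rose and 4 fell, and Cma1 did not pass with limma-voom.

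Granule genes of neutrophils fell more often than they rose, among early and late members alike. Of 19 tested primary granule genes 7 fell and 4 rose. Without BM progenitor replicates 1, 2 and 3 the falls were 4, 5 and 5 and the rises 3, 2 and 2. In the 9-library fit there were 4 falls and no rise. Mpo, myeloperoxidase (chromosome 11, 87793581 to 87804413, plus strand), was at 3073, 2956 and 2190 CPM in BM progenitor and at 12.9, 10.4 and 5.04 CPM in Runx2wt, which gave a log2 fold change of -8.15 (with SE 0.33, edgeR adjusted p = 5.52e-07). Serine proteases stored in the same granules changed less. Prss57 fell by 1.95, from 88.3, 94.1 and 65.2 CPM to 46.2, 11.5 and 3.92 CPM, and lost its call with DESeq2, in the 9-library fit, without any 1 of the BM progenitor libraries and without Runx2wt replicate 2. Prtn3, proteinase 3, fell by 0.91 to 718, 865 and 390 CPM, while Elane, at 477, 557 and 101 CPM against 823, 842 and 582 CPM, and Ctsg, at 1015, 522 and 397 CPM against 965, 891 and 849 CPM, did not pass. Elane passed as lower without Runx2wt replicate 3 and with the replicate block, and Ctsg without Runx2wt replicate 1; Prtn3 lost its call without BM progenitor replicate 1 or 2 and in the 9-library fit. Serpinb1a, an inhibitor of these proteases, rose by 1.15. Lyz2, lysozyme, rose by 0.97 log2 units (edgeR adjusted p = 0.0453) with overlapping groups, 3823, 2719 and 3582 CPM against 3779, 5224 and 10808 CPM, where Runx2wt replicate 3 stood highest. Its call was lost with DESeq2 and limma-voom, in the 9-library fit, without any 1 of the BM progenitor libraries and without Runx2wt replicate 3.

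Of 30 tested late neutrophil genes 13 fell (43.3% against 16.0% over all genes) and 5 rose (16.7% against 17.8%), with a median of -0.83. Without BM progenitor replicate 3 or Runx2wt replicate 2 the rises were 3, and in the 9-library fit 2 rose and 5 fell. S100a8 and S100a9, the subunits of calprotectin, fell from 5462, 4541 and 3883 CPM to 128, 1457 and 306 CPM and from 3378, 2975 and 2633 CPM to 9.31, 662 and 65.0 CPM. Runx2wt replicate 2 held most of what remained. S100a9 lost its call without any 1 of the BM progenitor libraries, and both lost it in the 9-library fit. Camp, the cathelicidin of secondary granules, fell by 6.95 log2 units, Ltf, lactoferrin, fell by 6.75, and Fcnb, ficolin B, had no count in Runx2wt and was at least 192-fold lower. Stfa1, a stefin of neutrophils, rose by 5.07 and Ly6g, the surface antigen used to mark neutrophils, by 3.78, from at most 2.36 CPM to 5.89, 43.1 and 12.1 CPM. Il1r2, the decoy receptor of interleukin 1, rose by 2.85.

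Monocyte and macrophage genes changed in both directions, 11 rising and 11 falling of 40 tested (median 0.19), and 4 and 5 in the 9-library fit. S100a4, a calcium-binding protein of motile cells, was at 497, 556 and 516 CPM in BM progenitor and at 14.4, 4.76 and 40.1 CPM in Runx2wt (log2 fold change -4.74, SE 0.53). Ms4a6c fell by 4.35 and Vcan fell by 3.35, both genes of classical monocytes. Mertk, a receptor for dying cells, and Mrc1, the mannose receptor, rose by 1.98 and 1.97, Mertk not without BM progenitor replicate 1 or 2. Ccr2, the homing receptor of monocytes, did not pass, at 92.3, 79.2 and 118 CPM against 118, 113 and 82.1 CPM.

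Among genes of dendritic cells and antigen presentation by MHC class II 17 of 26 tested fell and 1 rose, with a median of -1.90; in the 9-library fit 11 fell. Ccr7, the lymph node homing receptor of dendritic cells, fell by 6.78, and Siglech, a marker of plasmacytoid dendritic cells, fell by 5.96, to 0.190, 0.280 and 0.280 CPM. Batf3, a transcription factor of conventional dendritic cells, fell by 5.61. H2-Aa, an MHC class II chain, went from 84.4, 131 and 140 CPM to 2.66, 5.04 and 14.3 CPM, with replicate 3 the highest of Runx2wt. H2-DMb1, which loads peptide onto class II molecules, rose by 0.72 with overlapping groups, 69.2, 85.2 and 57.5 CPM against 122, 79.2 and 148 CPM. Its call was lost with the replicate block, in the 9-library fit, without any 1 of the BM progenitor libraries and without Runx2wt replicate 1 or 3.

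Genes of stem and multipotent cells fell as well, 15 of 24 tested, while 4 rose, 2 of which were Hoxa9 and Meis1; in the 9-library fit 3 fell and 3 rose. Hlf, a transcription factor of stem cells, went from 23.7, 26.3 and 15.4 CPM to 0.190, 0.560 and 0 CPM (log2 fold change -6.33). Cd34, an antigen of progenitors, went from 81.5, 83.5 and 77.6 CPM to 14.8, 1.96 and 3.64 CPM, and Gata2, a transcription factor of stem and mast cells, from 115, 109 and 134 CPM to 23.0, 3.08 and 6.17 CPM. Gfi1b, a repressor of erythroid and megakaryocyte cells, fell by 4.95. Kit, the receptor of stem cell factor, fell by only 0.74, to 41.0, 43.9 and 45.4 CPM. Myb, a factor of immature cells, did not pass, at 416, 347 and 348 CPM against 675, 573 and 321 CPM, and neither did the myeloid factors Spi1, which encodes PU.1 (348, 299 and 320 CPM against 302, 383 and 322 CPM), and Cebpa (180, 123 and 110 CPM against 215, 184 and 112 CPM). Over 120 tested myeloid and lymphoid transcription factors 28 rose and 34 fell; without BM progenitor replicates 1 and 3 the rises were 18 and 16, and in the 9-library fit 7 rose and 14 fell. Myb passed as higher without Runx2wt replicate 3.

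Few genes of megakaryocytes, erythroid cells and lymphocytes had enough counts to test. Itga2b and Pf4, markers of megakaryocytes, fell by 2.74 and 1.77 log2 units, and Car2, an early erythroid carbonic anhydrase, fell by 3.54. Vwf and F2rl2, also listed for megakaryocytes and platelets, rose by 4.08 and 3.84. Thbs1, thrombospondin 1, rose by 3.19 (SE 0.85, edgeR adjusted p = 0.0166), from 166, 13.6 and 12.7 CPM to 330, 793 and 658 CPM, and BM progenitor replicate 1 stood apart from the other two; its call was lost without BM progenitor replicate 2 or 3 and in the 9-library fit. Hbb-bs, a globin gene, rose by 2.19, with 1.71, 25.8 and 22.7 CPM in Runx2wt, where replicate 1 lay below all 3 BM progenitor libraries (2.75, 3.80 and 4.29 CPM). Its call (edgeR adjusted p = 0.0479) was lost with limma-voom, the replicate block and the 9-library fit, without any 1 of the BM progenitor libraries and without Runx2wt replicate 2 or 3. Tox, a nuclear factor of lymphocyte development, rose by 4.46 and Bcl11a, a factor of lymphoid progenitors, fell by 2.98.

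Immediate-early genes, which respond within minutes to signals and to handling of cells, fell for 14 of 28 tested and rose for 4, with a median of -0.59; the falls were 8, 7 and 7 without BM progenitor replicates 1, 2 and 3 and 4 in the 9-library fit. Klf4 fell by 2.64, from 53, 55.3 and 69.7 CPM to 6.27, 1.40 and 21.3 CPM, with replicate 3 the highest of Runx2wt, and Egr2 fell by 2.45. Fosl2 and Dusp6, the phosphatase that acts in feedback on ERK, rose by 1.71 and 1.73. The part of the time between harvest and lysis was not tested, and the labels do not give it.

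**Figure D3:**
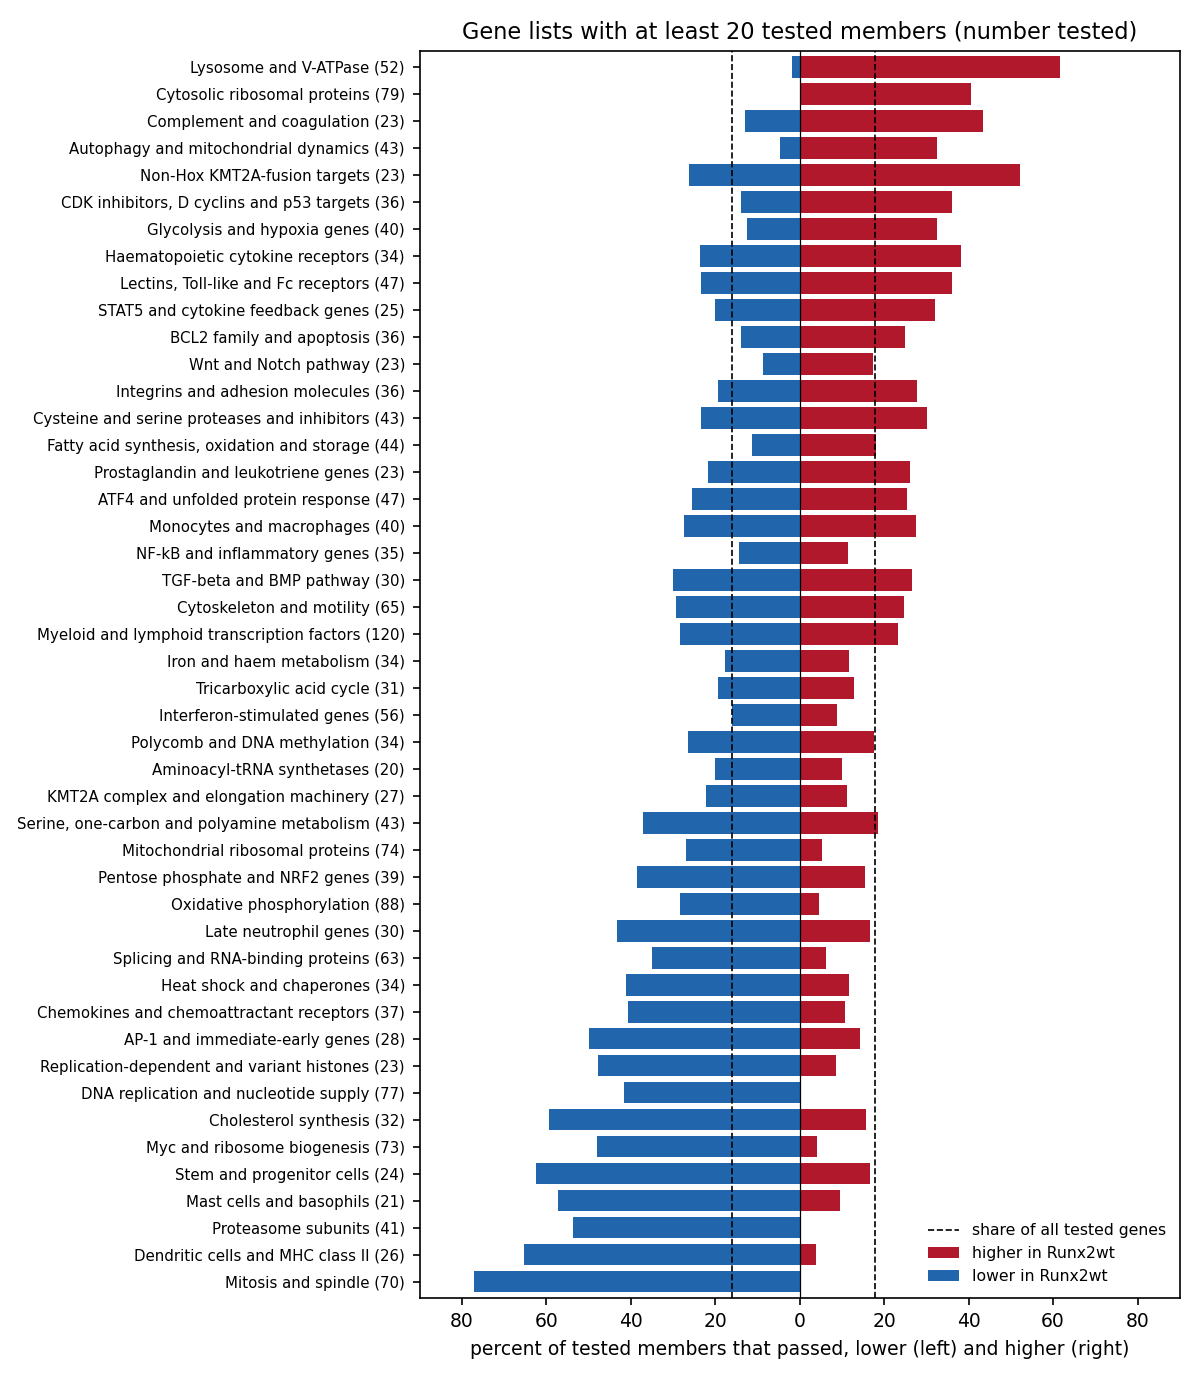
For each of 46 gene lists with at least 20 tested members, bars give the percent of tested members that rose (red, right) and fell (blue, left); dashed lines mark the shares over all tested genes, 17.8% higher and 16.0% lower. Lysosomal genes stand at the top and mitosis genes, of which none rose, at the bottom.

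Receptors and secreted molecules changed in both directions within families. Among 34 tested cytokine receptors 13 rose (38.2% against 17.8% over all genes) and 8 fell (23.5% against 16.0%). Without BM progenitor replicate 1 there were 7 rises, and 8 without replicate 2 or 3. In the 9-library fit 2 rose and 2 fell. Csf2ra, the specific chain of the GM-CSF receptor, rose by 1.97 log2 units, from 40.9, 20.6 and 37.5 CPM to 96.3, 156 and 141 CPM. Csf2rb2, the beta chain that only IL-3 uses, fell by 1.73, from 170, 186 and 192 CPM to 47.3, 59.3 and 58.6 CPM. Il6st, which encodes gp130, the signalling chain for IL-6, fell by 3.46, to 3.42, 3.92 and 5.89 CPM. Il1rl1, the receptor of IL-33 on mast cells and basophils, fell by 3.39, and Il17ra rose by 1.44. Among feedback genes of cytokine signalling Pim3 fell by 1.91 and Pim2 fell by 1.84, both kinases induced by STAT5, and Id1 and Etv4 rose by 2.02 and 3.85.

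Of 47 tested lectins, Toll-like and Fc receptors 17 rose and 11 fell, and 6 and 4 in the 9-library fit. Cd33, a sialic acid-binding receptor of myeloid cells, was at 20.7, 22.5 and 19.5 CPM in BM progenitor and at 316, 503 and 483 CPM in Runx2wt (log2 fold change 4.37, SE 0.21, edgeR adjusted p = 1.59e-06). Fcgr4, a receptor of IgG, and Cd300c2 rose by 4.23 and 3.84. Clec4a1 fell by 3.82, and Fcer1a, the IgE receptor chain of mast cells and basophils, fell by 2.99. Among chemokines and their receptors falls outnumbered rises, 15 to 4 of 37 tested (median -0.70); without Runx2wt replicate 1 there were 14 and 9, and in the 9-library fit 6 and 1. Ccl17 and Ccr9 fell by 6.56 and 5.34. Ccl6, an abundant myeloid chemokine, rose from 504, 621 and 767 CPM to 1796, 1755 and 1466 CPM, Ccl4 by 1.54 and Ccl7 by 1.88 log2 units, and Cxcr4, the receptor that keeps cells in the marrow, by 0.54, though not without BM progenitor replicate 3 or in the 9-library fit.

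Coagulation genes were among the secreted proteins that rose. Of 23 tested genes of complement and coagulation 10 rose and 3 fell (median 0.33); in the 9-library fit 5 rose. F7, coagulation factor VII, was at 15.4, 23.6 and 20.2 CPM in BM progenitor and at 358, 552 and 592 CPM in Runx2wt (log2 fold change 4.67, SE 0.25, edgeR adjusted p = 2.48e-06), and F5, its downstream cofactor, rose by 2.77. F2r, the thrombin receptor PAR1, fell by 3.37. Of 43 proteases and inhibitors 13 rose (30.2% against 17.8% over all genes) and 10 fell (23.3% against 16.0%), and 7 and 5 in the 9-library fit. Timp2, an inhibitor of metalloproteases, went from 9.91, 10.8 and 10.5 CPM to 182, 242 and 193 CPM, and Mmp12, the macrophage elastase, rose by 3.81, while Ctsh, a lysosomal aminopeptidase, fell by 2.56. Saa3, an acute-phase protein, went from 62.6, 49.1 and 45 CPM to 465, 1017 and 1057 CPM, yet of 35 inflammatory genes tested 4 rose and 5 fell, 25.7% against 33.9% over all genes. Interferon-stimulated genes were likewise below the background, with 5 rising and 9 falling of 56 tested, 25%. Without Runx2wt replicate 1, 9 members of each of these lists rose; without Runx2wt replicate 3, 13 inflammatory genes fell. In the 9-library fit 6 interferon-stimulated genes fell and none rose, and 3 inflammatory genes fell and 2 rose.

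Hpgd, which breaks down prostaglandins, rose from 0.184, 0.271 and 0.643 CPM to 94.6, 126 and 177 CPM. The fitted log2 fold change was 8.40 (SE 0.41, edgeR adjusted p = 1.59e-06), and without Runx2wt replicate 3, the highest library, it passed as well. Pla2g7, which breaks down platelet-activating factor, fell by 4.61 and Ptger3, a receptor of prostaglandin E2, fell by 2.49, though not without BM progenitor replicate 2. In the pathway of TGF-beta 8 genes rose and 9 fell of 30 tested; 4 rose without BM progenitor replicate 1 and 5 without replicate 2. Tgfb2, the ligand, rose by 7.91 (SE 0.95), to 45.4, 158 and 26.6 CPM, and Tgfbr3, its co-receptor, by 4.8. Tgfbi, a matrix protein induced by TGF-beta, fell by 4.51, Smad1 fell by 4.50 and Id3 fell by 4.31. Adhesion molecules changed in both directions as well. Itgb5, a subunit of the vitronectin receptor, rose by 3.41 and Cd81, a tetraspanin, by 1.67, whereas Vcam1 fell from 126, 96.0 and 82.6 CPM to 7.79, 0 and 0.841 CPM and Itgb7, a homing integrin, fell by 2.99. In the cytoskeleton Gsn, the actin-severing gelsolin, went from 48.5, 50.2 and 58.6 CPM to 753, 1299 and 793 CPM, and Cnn3, a calponin, fell by 5.52.

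Genes of cell division fell together. Of 70 tested mitosis and spindle genes 54 fell and none rose, 77.1%, with a median log2 fold change of -0.98, and the number of falls was 54 as well with limma-voom, with DESeq2 and with other size factors (DESeq2 called 1 rise). Kif23, a kinesin of cytokinesis, was at 155, 144 and 150 CPM in BM progenitor and at 62.3, 28.6 and 41.5 CPM in Runx2wt (log2 fold change -1.75, SE 0.24, edgeR adjusted p = 0.000636). Kifc1, a minus-end kinesin, fell by 2.06 and Pimreg fell by 1.91. Cdc20 and Ect2, whose promoter stretches are shown above, went from 131, 113 and 134 CPM to 67.6, 29.1 and 21.6 CPM and from 47.9, 48.3 and 50.6 CPM to 28.5, 10.9 and 10.9 CPM. In both genes Runx2wt replicate 1 was the highest of its group and stayed below every BM progenitor library.

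Of 77 tested genes of DNA replication and nucleotide supply 32 fell and none rose, with a median of -0.43. Gins1, a subunit of the replicative helicase complex, fell by 1.24 and Orc2, an origin protein, fell by 1.16. Orc1 and Mcm6, shown above, fell by 0.92 and 0.50; both lost their call without BM progenitor replicate 2 or 3, and Orc1 without Runx2wt replicate 1. These small changes lay near the limit of what 3 libraries a group resolved. The falls numbered 17, 12 and 14 without BM progenitor replicates 1, 2 and 3 and 18 without Runx2wt replicate 2, and in the 9-library fit none of them passed, and 18 mitosis genes did.

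Of 36 tested CDK inhibitors, D cyclins and p53 targets 13 rose, 5 fell and 18 did not pass (median 0.30); in the 9-library fit 5 rose and 1 fell. Cdkn1b, which encodes p27 (chromosome 6, 134920401 to 134925513, plus strand), went from 19.3, 22.5 and 17.6 CPM to 87.2, 157 and 85.8 CPM. The fitted log2 fold change was 2.47 (SE 0.26, edgeR adjusted p = 0.00014). Cdkn2c, which encodes p18, rose by 2.91, to 138, 113 and 21.3 CPM with replicate 3 lowest, and Gdf15, a stress-induced cytokine, by 1.60. The rises were 7 without BM progenitor replicate 3, and the falls were 1, 1, 2 and 1 without BM progenitor replicates 1, 2 and 3 and Runx2wt replicate 2. Among genes of cell death and survival 9 rose and 5 fell of 36, 38.89% against 33.9% over all genes. Rises were 6, 5 and 4 without BM progenitor replicates 1, 2 and 3. Falls were 3 without each of these and without Runx2wt replicate 2. In the 9-library fit 4 rose and 1 fell. Bcl2a1a, a survival protein with near-identical copies, rose by 3.38, Bnip3 and Bnip3l, receptors for the removal of mitochondria, by 1.83 and 1.40, and Bcl2 and Ripk3, a kinase of necroptosis, fell by 1.31 and 1.44.

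**Figure D4:**
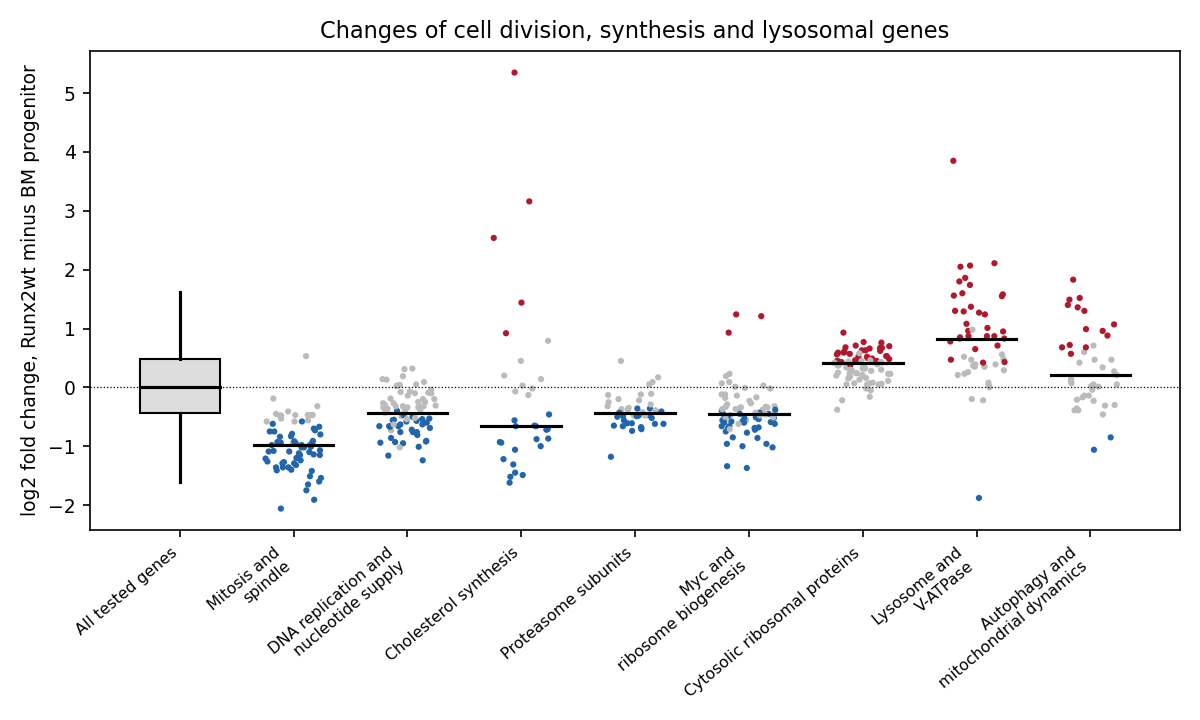
Log2 fold changes (Runx2wt minus BM progenitor) of the tested members of 8 gene lists, 1 point per gene, red where it rose, blue where it fell and grey where it did not pass, with the median as a bar. The box on the left gives the quartiles of all tested genes (-0.43 and 0.48) with whiskers to the outer 5%; mitosis genes lie around -0.98, lysosomal genes around 0.83 and cytosolic ribosomal proteins around 0.42.

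The machinery that makes ribosomes and the ribosome itself moved in opposite directions. Of 73 tested genes of Myc and ribosome biogenesis 35 fell and 3 rose (median -0.46), and the 3 that rose, Mnt, Mxi1 and Mxd4, encode partners of Max that oppose Myc. They rose by 1.24, 1.21 and 0.93. Mxd4, with overlapping groups at 42.2, 39.3 and 36.0 CPM against 82.6, 102 and 39.5 CPM, lost its call with limma-voom, in the 9-library fit, without any 1 of the BM progenitor libraries and without Runx2wt replicate 1 or 2. Mxi1 lost it in the 9-library fit, and Myc itself did not pass, at 37.6, 53.2 and 54.9 CPM against 69.5, 59.9 and 40.4 CPM. Polr1b, a subunit of RNA polymerase I, fell by 1.37 and Lyar, a nucleolar protein, by 1.34, from 200, 216 and 242 CPM to 109, 74.5 and 74.8 CPM. Ncl, the abundant nucleolar protein nucleolin, fell from 2274, 2504 and 2488 CPM to 1581, 1381 and 1542 CPM. The falls in this list numbered 14 and 18 without BM progenitor replicates 2 and 3, 20 without Runx2wt replicate 2 and 5 in the 9-library fit.

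Of 79 tested cytosolic ribosomal proteins 32 rose and none fell, with a median of 0.42. Rpl13a went from 1733, 1792 and 1791 CPM to 3178, 3655 and 3329 CPM (log2 fold change 0.93, SE 0.12, edgeR adjusted p = 0.000518), and Rps7 and Rplp0 rose by 0.77 and 0.76. The count depends on few libraries, being 14, 13 and 9 without BM progenitor replicates 1, 2 and 3 and 57 without Runx2wt replicate 3, in which 1 gene fell; with upper-quartile factors 27 rose and 1 fell. Of 74 mitochondrial ribosomal proteins 20 fell (27.0% against 16.0% over all genes) and 4 rose (5.41% against 17.8%); the falls were 10 without any 1 of the BM progenitor libraries and 11 without Runx2wt replicate 2 and 9 in the 9-library fit. Mrps27 and Mrps31 fell by 0.87 and 0.86 and Mrpl33 rose by 0.98; Mrps31 did not pass without BM progenitor replicate 1 or 3.

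Proteasome and lysosome genes moved in opposite directions. Of 41 tested proteasome subunits 22 fell and none rose (median -0.43), with 13, 11 and 14 falls without BM progenitor replicates 1 and 2 and Runx2wt replicate 2 and 10 with all 9 libraries. The largest fall was that of Psmb10, a subunit of the immunoproteasome, from 147, 116 and 143 CPM to 57.8, 52.9 and 68.7 CPM, followed by Psme1, part of its activator, by 0.74. Lysosomal genes rose, 32 of 52 tested with 1 falling, Acp5, and a median of 0.83. Acp5 did not pass with DESeq2, in the 9-library fit, without any 1 of the BM progenitor libraries or without Runx2wt replicate 1 or 2. Leaving out any 1 library moved neither this count nor the 54 mitosis falls by over 1.5 times, and with all 9 libraries 18 lysosomal genes rose.

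Among lysosomal proteases Ctsd, cathepsin D (chromosome 7, 142375911 to 142388038, minus strand), went from 949, 777 and 777 CPM to 2716, 2876 and 5211 CPM. The fitted log2 fold change was 2.11 (SE 0.25, edgeR adjusted p = 0.000259). Sgsh rose by 2.07, from 8.08, 6.78 and 8.36 CPM to 34.6, 26.3 and 37.3 CPM. Grn, progranulin, a lysosomal growth factor, rose by 2.05 and Cd63, a tetraspanin of late endosomes, by 1.27, and with Ctsd and Lyz2 these were 4 of the 10 largest gains in CPM. Runx2wt replicate 3 was the highest library in each of these 4. Atp6v0d2, a subunit of the proton pump used by macrophages and osteoclasts, rose by 3.85, to 42.2, 8.96 and 52.4 CPM. Of 43 autophagy genes 14 rose and 2 fell; 9 rose without BM progenitor replicate 2. Wipi1 and Map1lc3a, which act in autophagosome formation, rose by 1.52 and 1.49, and Tfeb, a transcription factor of lysosomal genes, fell by 0.85, though not without BM progenitor replicate 1 or 3. In the 9-library fit 7 autophagy genes rose.

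Metabolic genes changed in separate blocks. Of 32 tested cholesterol genes 19 fell and 5 rose (median -0.65), with enzymes of synthesis among the falls and genes of export and uptake control among the rises. Hmgcs1, an early enzyme of the pathway, went from 311, 331 and 380 CPM to 144, 111 and 108 CPM (log2 fold change -1.49, SE 0.16), and Cyp51 and Acat2 fell by 1.45 and 1.31. Abca1, which exports cholesterol, rose by 5.35, to 30.8, 19 and 51.6 CPM, and Mylip, which degrades the LDL receptor, by 2.54. Plin2, a coat protein of lipid droplets, rose by 2.10 and Dgat1, which makes triglyceride, by 1.46. Without BM progenitor replicate 1 the cholesterol list had 13 falls and 2 rises, without BM progenitor replicate 2 it had 13 and 3, without Runx2wt replicate 1 it had 18 and 3, and with all 9 libraries it had 7 and 2.

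Of 39 tested pentose phosphate genes and targets of NRF2, the factor of the oxidative stress response, 15 fell, 6 rose and 18 did not pass; in the 9-library fit 10 fell and 2 rose. Hmox1, haem oxygenase, went from 125, 116 and 99.3 CPM to 22.0, 26.3 and 26.1 CPM (log2 fold change -2.20, SE 0.16, edgeR adjusted p = 2.06e-05). Slc7a11, the cystine importer, and Nqo1 fell by 1.84 and 1.78, while Gpx3, a secreted glutathione peroxidase, rose by 3.46 and Mgst2, a microsomal glutathione transferase, by 1.96. Genes of glycolysis and hypoxia rose for 13 of 40 (32.5% against 17.8% over all genes) and fell for 5 (12.5% against 16.0%), and 9 rose in the 9-library fit. Aldoc, an aldolase, rose from 5.87, 5.15 and 8.58 CPM to 48.1, 78.4 and 71.8 CPM, and Slc2a3, a glucose transporter, fell by 2.51. Of 88 oxidative phosphorylation genes 25 fell (28.4% against 16.0% over all genes) and 4 rose (4.55% against 17.8%); the falls were 11, 9 and 15 without BM progenitor replicates 1 and 2 and Runx2wt replicate 2 and 8 with all 9 libraries. Atp5g3, a subunit of the ATP synthase ring, fell from 2385, 2483 and 2467 CPM to 1464, 1261 and 1489 CPM.

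In the response to amino acid and protein-folding stress 12 genes rose and 12 fell of 47 tested. Trib3 and Atf5, induced by ATF4, rose by 2.41 and 1.87, with Trib3 at 32.1, 40.1 and 36.7 CPM against 96.9, 214 and 268 CPM. Chac1, which degrades glutathione, rose by 1.77. Creld2, a target of the endoplasmic reticulum branch, fell by 1.39, and the chaperones of that compartment Hspa5 and Calr fell by 0.64 and 1.06, from 2542, 2609 and 2620 CPM to 1660, 1488 and 1836 CPM in the case of Hspa5. Without BM progenitor replicate 1 the counts were 8 and 7, and in the 9-library fit 6 and 2, and Calr lost its call without BM progenitor replicate 1 or 3. Of 34 heat shock genes and chaperones 14 fell and 4 rose, 1 rising without any 1 of the BM progenitor libraries and 7 falling in the 9-library fit. Fkbp4, a co-chaperone of Hsp90, fell by 1.37, and Hspa2 rose by 3.95, to 82.8, 104 and 35 CPM from at most 6.86 CPM.

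Runx2wt libraries varied more among themselves than BM progenitor libraries. Over 5957 genes with at least 20 CPM in both groups the median SD of log2 CPM was 0.214 in Runx2wt and 0.134 in BM progenitor, and the SD was larger in Runx2wt for 71.1% of genes. Replicate 3 lay over 1 log2 unit from the group's median in 96 of these genes, against 44 and 30 for replicates 1 and 2. The most variable gene was Satb1, a chromatin organiser, at 23.6, 445 and 3.64 CPM in Runx2wt against 53.6, 49.4 and 48.0 CPM in BM progenitor, which did not pass. Chst13, a sulfotransferase, was at 155 and 128 CPM in Runx2wt replicates 1 and 2 and at 7.57 CPM in replicate 3, without which it passed as higher. Ngp, a neutrophil granule protein, was at 23.6, 150 and 6.73 CPM, and Cxcl2, a chemokine of neutrophils, at 19.8, 85.9 and 257 CPM, passing as lower without replicate 3. No single library was apart in all of these. In BM progenitor Thbs1 and Myl10, the latter at 192, 45 and 31.5 CPM, were highest in replicate 1, without which Myl10 passed, and Clec7a, the receptor dectin-1, was lowest there, at 123 against 272 and 304 CPM.

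**Figure D5:**
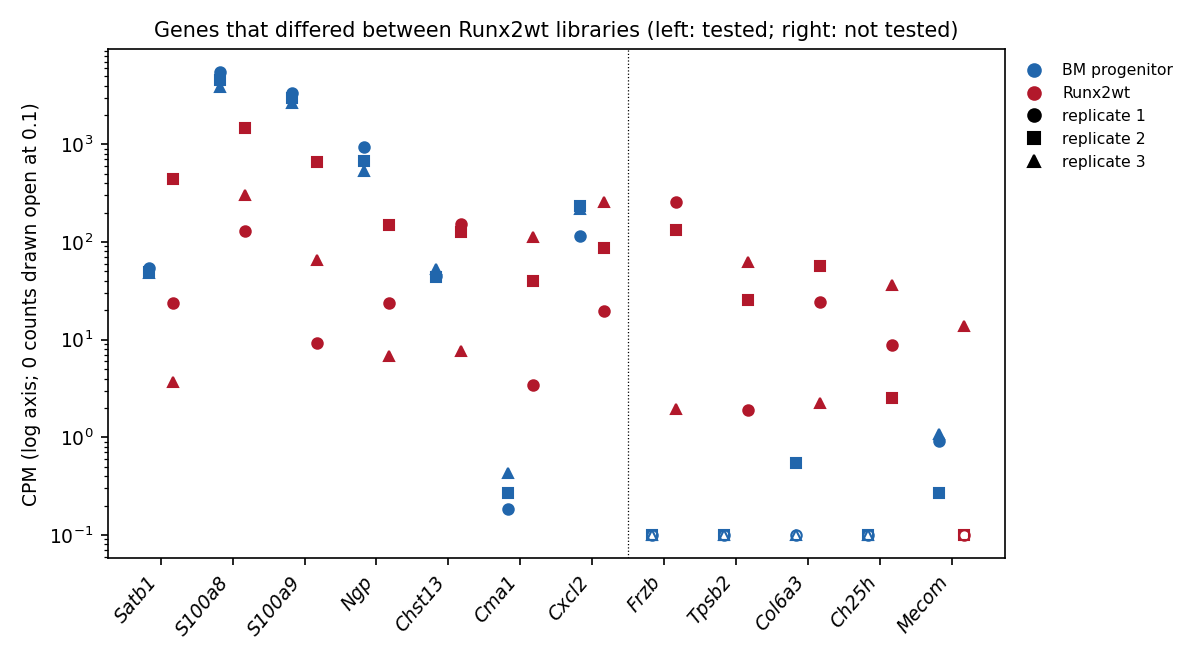
CPM on a log axis in each library (blue BM progenitor, red Runx2wt; circles, squares and triangles are replicates 1, 2 and 3, with 0 counts drawn open at 0.1) of genes that differed between Runx2wt libraries. The 7 on the left were tested; the 5 on the right were high in 1 or 2 Runx2wt libraries and had enough counts in too few libraries to be tested, such as Frzb at 259, 132 and 1.96 CPM.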

How the data were processed

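Raw counts for each Ensembl gene were deposited by the authors, from QuantSeq 3' libraries made, per the labels, with 500 ng of RNA. A second deposited table held the authors' scaled counts, in which every library's raw counts were divided by 1 constant (other than any standard unit). The submitters' processing notes name STAR, FastQC and DESeq2 and the build GRCm38. Versions, the counting program, the annotation and the use of strand are not stated there, so genes that overlap or lie antisense may have shared reads. Symbols came from GENCODE for the same build and matched 21042 of 21159 identifiers.

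The 6 libraries were fitted alone with edgeR 4.0.16 in R 4.3.3 (TMM factors, filterByExpr, quasi-likelihood F-test, Benjamini-Hochberg threshold 0.05); standard errors were derived from the F statistic. Every replicate pair differed by more than sampling noise (chi-square of at least 4.25 per gene), and the floors given for genes at 0 cover counting error only. P-values and standard errors set the difference between the groups against the spread between these samples within a group. The fit was tested on simulated counts in which few genes were changed. It recovered 44.4% of 2-fold, 89.1% of 4-fold and 98.4% of 16-fold changes, and 2 of its 150 calls were false. A gene that did not pass may thus still differ by a small fold. Alternatives were DESeq2 1.42.0, limma-voom and limma 3.58.1 on log2 of the deposited values plus 1, other factors and filters, a minimum fold of 2, all 9 libraries, a replicate block and leaving out each library.

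The 59 gene lists were written by hand, and lists and members were chosen with earlier results of these data known. Genes were named by rule: a panel of 16 genes, up to 15 largest rises and falls with at least 10 CPM in the higher group and groups that do not overlap, up to 6 genes in each direction with 0 counts in 1 group, the 15 most abundant genes, up to 3 rises and 3 falls per list, the 8 most variable genes per group and the 10 largest gains and losses in CPM. Cell type markers, genes shown with promoter stretches and genes not tested are named outside this rule, as are Siglecf and Acp5, chosen after their values were seen.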

Additional observations from a re-analysis of the deposited data

How the results depend on the processing

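Over the alternatives no gene that passed in both fits changed direction. The count of passing genes, 3679, was 3676 to 3725 with DESeq2, limma-voom, other size factors or the authors' normalized values. With upper-quartile factors 1797 rose and 1886 fell, and with the normalized values 1826 and 1855, so the balance of rises and falls moved with the scaling. Against a minimum fold of 2, 758 genes passed (388 higher, 370 lower). With all 9 libraries sharing 1 estimate of the spread 1513 passed (927 higher, 586 lower), 61.3% of them higher. Leaving out 1 library gave 2363 to 4036 passing genes, 1268 to 2084 higher and 1083 to 1952 lower; the lowest counts came without BM progenitor replicates 2 and 3, fits that also have fewer libraries. Same-numbered libraries of the 2 groups shared little of their deviations from the group means (correlations 0.0236, 0.00538 and 0.0581, against -0.0495 to 0.0302 for the other pairs). Whether same-numbered samples share animals was not tested. With a replicate block 3338 genes passed (1751 higher, 1587 lower). Of 212 named genes 105 kept the same call in all 16 alternatives, and 68 lost theirs with all 9 libraries. Among named genes that did not pass, the sign changed for some. The log2 fold change of Satb1 was -0.61 with limma-voom, -0.57 with the normalized values and -0.35 with the block, and -1.81 to 2.20 over the fits without 1 library. On the same leave-one-out fits Ccr2 ran from -0.01 to 0.28, Cpa3 from -1.17 to 0.19 and Spi1 from -0.04 to 0.13.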

Other observations

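A further 35 genes reached 10 CPM in a library without having enough counts to be tested, and they were named after their values were seen. The highest library was Runx2wt replicate 3 for 20 of them, Runx2wt replicate 2 for 9, Runx2wt replicate 1 for 5 and BM progenitor replicate 3 for 1. Frzb, a secreted inhibitor of Wnt proteins, had no count in BM progenitor and 259, 132 and 1.96 CPM in Runx2wt. Tpsb2, a mast cell tryptase, followed the order of Cma1, at 1.90, 25.2 and 63.1 CPM in Runx2wt and 0 in BM progenitor. Mecom, a transcription factor of stem cells, was at 0, 0 and 13.7 CPM in Runx2wt.

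Splicing and RNA-binding proteins fell for 22 of 63 tested (34.9% against 16.0% over all genes) and rose for 4 (6.35% against 17.8%). Mbnl1, a splicing regulator of maturing cells, went from 554, 528 and 470 CPM to 1699, 2398 and 2262 CPM and was among the 10 largest gains in CPM, and Snrpg and Snrpd2, core spliceosome proteins, fell by 0.78 and 0.75 log2 units. The falls were 8 and 12 without BM progenitor replicates 2 and 3 and 13 without Runx2wt replicate 2, and 5 in the fit of all 9 libraries. H1fx, a linker histone, went from 13.2, 13.6 and 26.6 CPM to 0.380, 0 and 0 CPM, and Grb10, an imprinted adaptor of insulin receptor signalling, from 15.2, 13.8 and 16.3 CPM to 0, 0.280 and 0 CPM. Long noncoding RNAs rose more often than they fell, 102 against 39 of 470 tested, and so did pseudogenes, 41 against 16 of 276. The shares that rose were 21.7% and 14.9%, against 17.8% over all genes, so pseudogenes did not rise more often than other genes. The shares that fell, 8.30% and 5.80%, were below the 16.0% over all genes. Protein-coding genes were near balance, 1778 against 1668 of 10019.

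Sex-linked genes differed between libraries of a group. Xist was at 51.6, 0.543 and 57.7 CPM in BM progenitor and at 0, 0.560 and 21.6 CPM in Runx2wt, while Ddx3y, on the Y chromosome, was counted in every library, at 45.5, 101 and 59.2 CPM and at 120, 75.3 and 92.2 CPM. BM progenitor replicates 1 and 3 and Runx2wt replicate 3 thus held both transcripts. The labels give no sex, and the part of sex in the changes was not tested.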
